A study of Mus musculus with 126 samples.

Results

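The cell division cycle was followed through 39 genes in single cells of the mouse endolymphatic sac. The genes were taken by symbol from a pair of lists, 19 genes of DNA synthesis (S) and 20 genes of the G2 phase and mitosis (G2M), out of 48490 gene identifiers in the expression table. Both lists were chosen with earlier results of these data known. All 39 were found. The endolymphatic sac is the blind end of the inner ear epithelium that helps to regulate the endolymph. Cells were dissociated at embryonic stage E14.5 and copied to cDNA by Smart-seq2, a plate protocol that covers whole transcripts of 1 cell per well. In all, 33 cells carried the label wild type and 93 the label Sox9 Y440X/+, heterozygous for the Y440X allele of the transcription factor gene Sox9, in which X stands for a stop codon.

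No animal, litter, sex or strain is named for the cells, so each genotype was treated as a sample of size 1. No p-value, standard error or test between genotypes is given. The 95% intervals beside shares of cells are exact (Clopper-Pearson) and reflect the counting of cells, not differences among animals. Values are FPKM, fragments scaled to transcript length and to the mapped fragments of the cell, and a gene at 5 FPKM or more in a cell is called present there. The FPKM of a cell summed to between 60901.7 and 1.63611e+07, with a median of 462792, so 5 FPKM is not an equal cut in every cell. Read numbers are unknown, and the number of genes above 0 FPKM, called listed genes below, stood in for depth. It ran from 2035 to 9358, with a median of 5329 in wild-type and 4423 in Sox9 Y440X/+ cells. Of the 4914 values that 39 genes gave in 126 cells, 4226 were 0, 98 lay between 0 and 5 FPKM and 590 were at 5 FPKM or more. A value of 0 can be a transcript that was not captured.

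Genotype cannot be told apart from the title prefix or from sex-linked expression. Titles of all 93 Sox9 Y440X/+ cells and of wild-type cell 33 begin with P9, and those of 32 wild-type cells with P10. At a level of 1 FPKM, Y-linked genes were found in 32 of 33 wild-type cells and in 4 of 93 labelled Sox9 Y440X/+ (cells 47, 58, 70 and 82), while Xist reached that level in 0 and 81 cells. Those 4 cells had 2 to 5 S genes and at most 1 G2M gene. The tissue label was checked against markers: the epithelial adhesion gene Epcam was at 1 FPKM or more in 113 of 126 cells. In 10 others, 9 of them Sox9 Y440X/+, Epcam was below 1 FPKM and the fibrillar collagen genes Col1a2 and Col3a1 were both at 5 FPKM or more. These are called collagen cells below, a class defined after the values were seen.

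A dividing cell first licenses its replication origins by loading the MCM helicase, then copies its DNA in S phase, and finally condenses and separates its chromosomes in mitosis. Transcription follows this order. E2F factors drive the S genes, and the G2M genes are held down early in the cycle through a promoter element called the cell cycle genes homology region (CHR), bound by the DREAM and MuvB complexes, often with CCAAT boxes nearby.

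The promoter windows of 3 genes of each list are shown because the lists differ in these motifs. They are RefSeq sequences of GRCm38.p6 from 250 bases before to 50 bases after the annotated start, on the strand of the gene. Capitals mark matches on either strand to CHR (TTTGAA), to the E2F motif (TTTNNCGC) or to the CCAAT box (CCAAT, which reads ATTGG on the other strand); neighbouring matches can overlap, as in Mcm5 and Mcm6. Cdk1 lies at chr10:69352863-69353162 (minus strand), Ccnb2 at chr9:70421505-70421804 (minus), Top2a at chr11:99024140-99024439 (minus), Pcna at chr2:132253131-132253430 (minus), Mcm5 at chr8:75109259-75109558 (plus) and Mcm6 at chr1:128359656-128359955 (minus).
Cdk1: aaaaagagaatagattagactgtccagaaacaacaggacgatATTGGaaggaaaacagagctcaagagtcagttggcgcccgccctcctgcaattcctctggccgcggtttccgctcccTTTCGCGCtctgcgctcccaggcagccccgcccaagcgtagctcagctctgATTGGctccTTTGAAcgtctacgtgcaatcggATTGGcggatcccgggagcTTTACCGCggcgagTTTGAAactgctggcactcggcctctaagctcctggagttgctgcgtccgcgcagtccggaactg
Ccnb2: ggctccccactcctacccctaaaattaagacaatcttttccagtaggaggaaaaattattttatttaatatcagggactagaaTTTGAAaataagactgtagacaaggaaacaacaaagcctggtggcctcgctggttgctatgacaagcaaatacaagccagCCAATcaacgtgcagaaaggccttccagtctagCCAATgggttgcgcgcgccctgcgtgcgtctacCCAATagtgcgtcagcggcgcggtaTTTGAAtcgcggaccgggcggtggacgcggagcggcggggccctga
Top2a: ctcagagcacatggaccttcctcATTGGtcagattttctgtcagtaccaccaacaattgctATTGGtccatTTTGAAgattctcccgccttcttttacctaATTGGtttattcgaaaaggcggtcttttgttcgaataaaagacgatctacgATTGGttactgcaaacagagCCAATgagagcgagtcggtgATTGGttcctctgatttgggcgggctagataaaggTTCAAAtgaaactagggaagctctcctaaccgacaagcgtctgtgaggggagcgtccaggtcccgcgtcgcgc
Pcna: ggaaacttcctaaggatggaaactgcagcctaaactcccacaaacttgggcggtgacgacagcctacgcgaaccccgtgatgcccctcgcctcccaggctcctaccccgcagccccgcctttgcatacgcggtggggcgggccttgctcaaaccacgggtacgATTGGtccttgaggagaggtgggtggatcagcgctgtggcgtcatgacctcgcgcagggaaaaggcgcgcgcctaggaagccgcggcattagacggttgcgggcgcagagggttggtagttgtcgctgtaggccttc
Mcm5: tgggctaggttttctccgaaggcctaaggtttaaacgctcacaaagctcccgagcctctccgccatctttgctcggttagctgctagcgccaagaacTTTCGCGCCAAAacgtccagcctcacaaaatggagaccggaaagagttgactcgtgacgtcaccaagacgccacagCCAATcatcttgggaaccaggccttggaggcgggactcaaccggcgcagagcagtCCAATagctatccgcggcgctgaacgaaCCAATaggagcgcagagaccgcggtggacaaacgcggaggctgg
Mcm6: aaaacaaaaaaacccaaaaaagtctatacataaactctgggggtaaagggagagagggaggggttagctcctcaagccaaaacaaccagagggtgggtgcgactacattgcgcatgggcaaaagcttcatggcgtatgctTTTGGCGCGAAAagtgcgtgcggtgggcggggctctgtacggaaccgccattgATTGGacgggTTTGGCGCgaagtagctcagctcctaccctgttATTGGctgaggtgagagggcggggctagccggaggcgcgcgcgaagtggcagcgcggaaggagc

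Promoter windows were found for 36 of the 39 genes, 18 of each list. Tpx2, Mcm4 and Aurkb were not matched. Mcm7 and Uhrf1 have more than 1 window, and a gene was counted where any of its windows held the letters. The CHR letters were found for 12 of 18 G2M genes (66.7%) and 3 of 18 S genes (16.7%), against 20.2% of the 27025 genes of the promoter table. The order was the reverse for the E2F letters, found for 9 of 18 S genes (50%) and 1 of 18 G2M genes (5.56%), against 5.93% of all genes. That 1 G2M gene was Cdk1, whose E2F matches begin 131 and 29 bases before the start and whose CHR matches begin 71 and 15 bases before it. The CCAAT letters did not separate the lists: 14 of 18 genes had them in each (77.8%), against 41.1% of all genes. CHR and CCAAT were both found for 11 G2M genes (61.1%) and 3 S genes, against 8.97% of all genes. Among the 7041 genes with a window that passed 1 FPKM in 10% of the cells or more, 13.5% held CHR and 10.5% the E2F letters. Pcna, the S gene present in the most cells, has no match to either in this window. A match describes letters only.

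The S genes were spread thinly over most cells, while the G2M genes were concentrated in 7. Of the 126 cells, 7 had no S gene present and 26 had 2, 30 had 3 and 23 had 4. Another 29 cells had 5 or more, up to 16 of 19. Of the 20 G2M genes, 81 cells had none, 26 had 1, 12 had 2 and none had 3 or 4. Above these stood 1 cell each with 5, 6, 13, 19 and 20 G2M genes and 2 cells with 14. The 7 cells with at least 5 held 91 of the 141 G2M values at 5 FPKM or more, and the other 119 cells held 50. For the S genes the same cells held 60 values and the other cells 389. The 7 cells were picked by their G2M count and not by their S count, so part of this contrast is fixed by the choice. All 5 cells with 13 or more G2M genes also had at least 5 S genes, from 7 to 16.

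**Figure D1:**
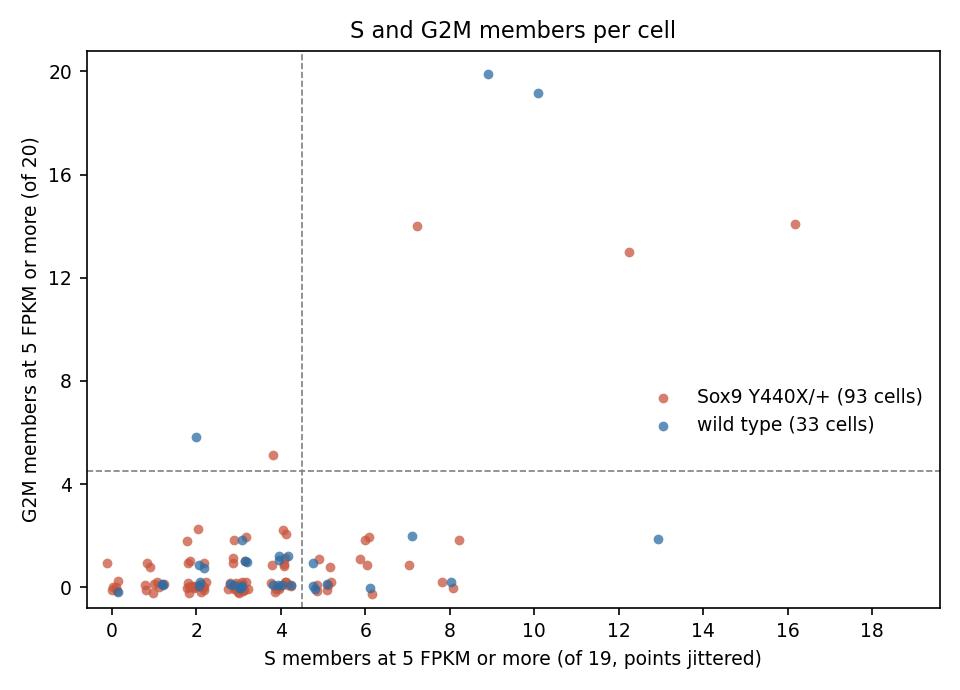
Each point is 1 cell (33 wild type, 93 Sox9 Y440X/+), placed by its number of S genes (x axis, of 19) and of G2M genes (y axis, of 20) at 5 FPKM or more, with a small random jitter. The dashed lines mark at least 5 genes. No cell has 3 or 4 G2M genes, and the 5 cells with 13 or more also lie to the right of the S line.

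Among the S genes, those of the replication clamp and of histone messages were present in the most cells. Pcna (ENSMUSG00000027342.14, chromosome 2, 132249162 to 132253314), the sliding clamp that holds DNA polymerases on the template, was present in 86 of 126 cells. Its level ranged from 0 through a median of 21.5 to 159.0 FPKM in wild-type cells and from 0 through 36.9 to 391.5 in Sox9 Y440X/+ cells. It was present in 69.7% of the former (51.3 to 84.4) and 67.7% of the latter (57.3 to 77.1). The wild-type range lay within that of Sox9 Y440X/+, which reached higher. Slbp (ENSMUSG00000004642.13, chromosome 5, 33634952 to 33652574), which binds the stem-loop at the end of replication-dependent histone mRNAs, was present in 56 cells. The shares were 48.5% of wild-type (30.8 to 66.5) and 43.01% of Sox9 Y440X/+ cells (32.8 to 53.7), with highest values of 149.5 and 205.5 FPKM. Pcna and Slbp were present together in 45 cells, which is 52.3% of the Pcna cells and 80.4% of the Slbp cells.

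The 6 genes of the MCM helicase were present in between 21 cells (Mcm5) and 43 cells (Mcm6), with Mcm4 in 42, Mcm3 in 40, Mcm2 in 34 and Mcm7 in 26. The 6 proteins act as 1 ring. No MCM gene was present in 29 cells, 1 in 35, 2 in 35, 3 in 14, 4 in 7, 5 in 5 and all 6 in wild-type cell 22 alone. Mcm3 and Mcm6, present in a similar number of cells, coincided in 19 (47.5% of the Mcm3 cells and 44.2% of the Mcm6 cells), where Mcm6 was present in 34.1% of all cells. The helicase partners were scarcer. Cdc45, which joins the loaded helicase to activate it, was present in 7 cells, and Cdc6, which loads it, in 2: wild-type cell 22 at 35.6 FPKM and Sox9 Y440X/+ cell 49 at 22.05. Prim1, a subunit of the primase that starts each new strand, was present in 10 cells.

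Genes of nucleotide supply and of chromatin copying were present in fewer cells. Tyms, thymidylate synthase (ENSMUSG00000025747.12, chromosome 5, 30058202 to 30073617), was present in 21 cells, with the highest S value of any cell, 466.4 FPKM in Sox9 Y440X/+ cell 49. Ribonucleotide reductase makes deoxynucleotides from a large subunit (Rrm1) and a small one (Rrm2). Rrm1 was present in 19 cells and Rrm2 in 4, all Sox9 Y440X/+ (170.3, 104.5, 95.4 and 43.01 FPKM in cells 22, 51, 54 and 49). For the wild type, a count of 0 in 33 cells leaves room for up to 9.09% of cells. Both subunits were present in 3 cells. Uhrf1, which guides methylation of newly copied DNA, was present in 14 cells, Dtl, the substrate receptor of a ubiquitin ligase active in S phase, in 9, Ung, a uracil-DNA glycosylase, in 8, and the chromatin remodeller Hells in 7. E2f8, an E2F family repressor, did not reach 5 FPKM in any of the 126 cells, a limit of 2.38%. Its highest values were 3.4 FPKM in Sox9 Y440X/+ cell 49 and 2.2 in wild-type cell 11, both of them among the 7 cells with at least 5 G2M genes.

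Of the G2M genes only Tacc3 and Cdk1 were present in more than 9 cells. Tacc3 (ENSMUSG00000037313.16, chromosome 5, 33658128 to 33678995), which stabilises spindle microtubules, was present in 22 cells, all 7 with at least 5 G2M genes and 15 others. Cdk1 (ENSMUSG00000019942.12, chromosome 10, 69336635 to 69352938), the kinase that drives entry into mitosis, was present in 16 cells, 6 of the 7 and 10 others. Its partner Ccnb1 (cyclin B1) was present in 5 cells and Ccnb2 (cyclin B2) in 6. All 5 Ccnb1 cells also had Cdk1 and Ccnb2 and were among the 7. Cdk1 was therefore present without Ccnb1 in 11 cells. One of these, Sox9 Y440X/+ cell 22, had 13 G2M genes with Cdk1 at 246.5 FPKM and both B cyclins listed at 0.

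The other G2M genes were scarcer still. Top2a, the topoisomerase that untangles chromosomes, was present in 9 cells and Mki67, which coats mitotic chromosomes, in 7. They coincided in 5 cells, all among the 7. Birc5 (survivin) was present in 9 cells and Aurkb in 4, both parts of the chromosomal passenger complex, and they coincided in 3. The spindle kinase Aurka was present in 5 cells and its activator Tpx2 in 8, but together only in wild-type cells 7 and 11. Of the anaphase-promoting machinery, the conjugating enzyme Ube2c was present in 7 cells and the activator Cdc20 in 5, together in 4. Of the microtubule motors and spindle proteins, Kif20b was present in 8 cells, Nusap1 in 7, Kif11 in 5 and Hmmr in 2 (wild-type cell 11 at 75.2 and cell 7 at 29.98 FPKM). At the kinetochore and checkpoint, Bub1 was present in 5 cells, Cenpe in 4 and Cenpf in 3, and the mitotic kinase Plk1 was present in 4. Ccnb1, Cdc20, Bub1, Cenpe, Cenpf and Hmmr were present in none of the 119 cells with at most 2 G2M genes. These 6 enter the count that defines the 7 cells, so this is a description.

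Exons of 6 of the 39 genes overlap a coding gene on the opposite strand in the GENCODE vM21 annotation: Mcm7, Cdc45, Cdc20, Ube2c, Nusap1 and Tacc3. Whether counting used strand is not given in the sources used here, so their values may hold reads of the neighbour. Without these 6 genes the share of wild-type cells with at least 5 G2M genes stayed at 9.09%, and that of Sox9 Y440X/+ cells was 3.23% in place of 4.30%.

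The order of genes within the 7 cells was read from FPKM, which is per length and so comparable between genes of a cell. Wild-type cell 11 had all 20 G2M genes and 9 S genes. Cdk1 led at 864.1 FPKM, followed by Ube2c at 565.7, Cdc20 at 516.2, Birc5 at 448.0 and Ccnb2 at 302.2, and 9 of its 10 highest cell cycle genes were G2M. Wild-type cell 7 had 19 G2M and 10 S genes and was led by Ube2c at 651.4 FPKM, then Ccnb2 at 429.7 and Birc5 at 416.3. G2M genes summed to 6.82 times the S genes in cell 11 and to 4.94 times in cell 7. In these cells alone were Aurka, Hmmr and Kif20b all present. Cell 7 was the only wild-type collagen cell, with Epcam at 0, Col1a2 at 106.2 and Col3a1 at 329.5 FPKM, whereas Epcam was at 618.0 and Col1a2 at 0 in cell 11.

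Both the balance and the leading gene differed in the 3 Sox9 Y440X/+ cells with 13 or 14 G2M genes. Cell 34 (7 S, 14 G2M) was led by Ccnb2 at 459.5 FPKM, with Birc5 at 370.4, Cdk1 at 231.7 and Ccnb1 at 231.1, and its G2M sum was 3.43 times the S sum. Cell 49 (16 S, 14 G2M) was led by Tyms at 466.4 FPKM, followed by Cdk1 at 303.8, Birc5 at 281.1 and Cdc45 at 239.1, with the G2M sum at 0.704 times the S sum. Cell 22 (12 S, 13 G2M) was led by Pcna at 391.5 FPKM, with Tyms at 292.6, Birc5 at 256.8 and Cdk1 at 246.5, and a ratio of 0.763. Cells 49 and 22 had both subunits of ribonucleotide reductase and Dtl, and none of these 3 cells had Aurka or Hmmr present. Epcam was at 474.3 and 322.2 FPKM in cells 34 and 49. Cell 22 was a collagen cell with Epcam at 0 and Col1a2 at 162.4 FPKM.

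The remaining cells had only a part of the set. Wild-type cell 15 (2 S, 6 G2M) was led by Cdk1 at 113.5 FPKM, with Tacc3 at 98.4, Ccnb2 at 76.5, Birc5 at 40.2, Ccnb1 at 39.8 and Mki67 at 8.1. Top2a, Ube2c and Cdc20 were at 0. Sox9 Y440X/+ cell 10 (4 S, 5 G2M) was led by Pcna at 118.4 FPKM. Its G2M genes were Cdc20 at 96.0, Tacc3 at 72.3, Tpx2 at 33.7, Nusap1 at 24.2 and Top2a at 10.8, with Cdk1 and both B cyclins at 0. Of these 5 genes, 3 are among those with an overlapping neighbour. Cell 10 was a collagen cell with Epcam at 0 and Col1a2 at 474.7 FPKM.

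**Figure D2:**
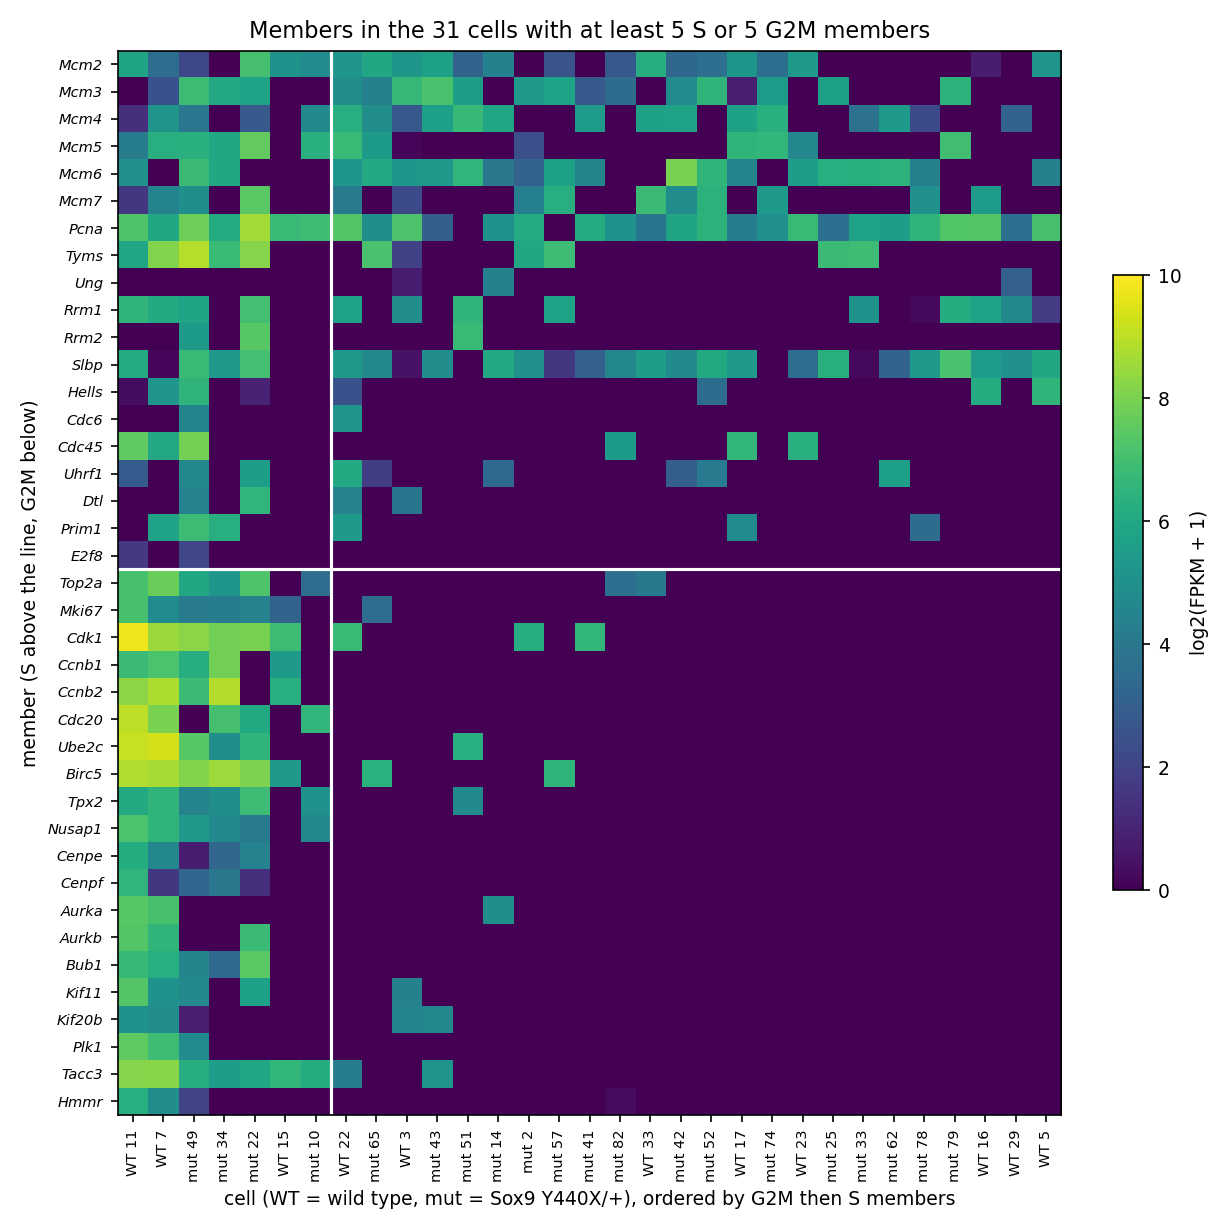
Rows are the 39 genes (S above the horizontal line, G2M below) and columns are the 31 cells with at least 5 S or 5 G2M genes, coloured by log2(FPKM + 1). The 7 columns left of the vertical line have at least 5 G2M genes; the 24 to the right have at least 5 S genes and at most 2 G2M genes, and there Pcna, Slbp and the MCM genes fill most of the coloured rows.

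A further 24 cells had at least 5 S genes and at most 2 G2M genes, 8 wild type and 16 Sox9 Y440X/+. Pcna led 7 of them, Tyms 4, and Cdc45, Cdk1, Mcm3, Mcm6 and Slbp 2 each. The fullest was wild-type cell 22 with 13 S genes and 2 G2M genes. It was led by Pcna at 159.0 FPKM, with Cdk1 at 107.3 and Mcm5 at 105.1, and had Cdc6 and Dtl besides the 6 MCM genes. Its Foxi1, the factor that specifies mitochondria-rich cells of the sac, was at 146.6 FPKM and its Epcam at 1132.9. Over the 16 cells with Foxi1 at 5 FPKM or more, 3 had at least 5 S genes and 0 had at least 5 G2M genes, a limit of 18.75%. Of the 24 cells, 20 had Epcam and 3 were collagen cells.

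The share of cells with many S or G2M genes was compared between genotypes. At least 5 G2M genes were present in 3 of 33 wild-type cells (9.09%, 1.92 to 24.3) and 4 of 93 Sox9 Y440X/+ cells (4.30%, 1.18 to 10.6). At least 5 S genes were present in 10 wild-type cells (30.3%, 15.6 to 48.7) and 19 Sox9 Y440X/+ cells (20.4%, 12.8 to 30.05). Both pairs of intervals overlap, and at this number of cells no difference could be seen beyond counting error. The median was 4 S genes per wild-type cell (SD 2.72, range 0 to 13) and 3 per Sox9 Y440X/+ cell (SD 2.43, range 0 to 16).

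These counts moved with the number of listed genes, which was higher in the wild type. Below 4000 listed genes, 3 of 31 cells had at least 5 S genes (9.68%) and 0 had at least 5 G2M genes, which allows up to 9.68%. From 4000 up to 5000 the shares were 11 of 51 (21.6%) and 2 (3.92%), and from 5000 up to 6000 they were 9 of 34 (26.5%) and 2 (5.88%). At 6000 and over they were 6 of 10 (60%, 26.2 to 87.8) and 3 of 10 (30%, 6.67 to 65.2). The listed genes include the 39 themselves. Spearman's rho between listed genes and the S count was 0.43 over the 126 cells, and 0.32 with the G2M count. Within bins the genotypes had no fixed order for S genes: the wild-type share was 36.4% against 17.5% from 4000 up to 5000, 14.3% against 35% from 5000 up to 6000 and 66.7% against 50% at 6000 and over. The lowest bin held only 2 wild-type cells.

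**Figure D3:**
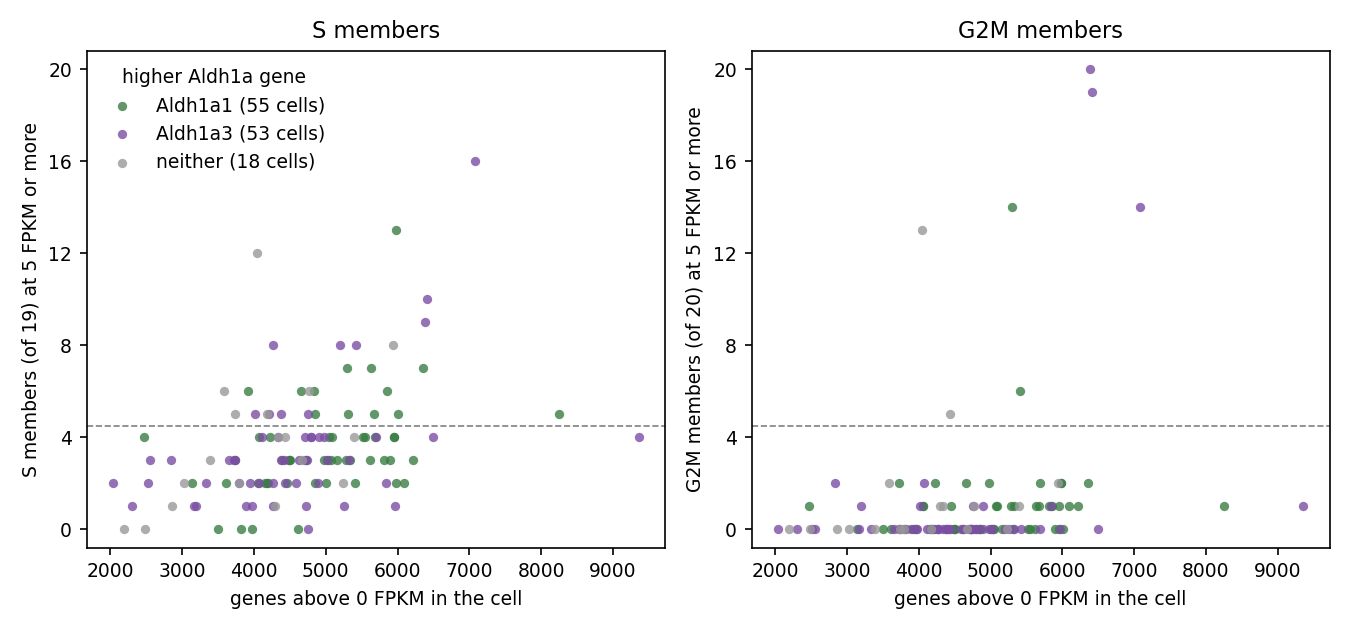
Points are cells, placed by genes above 0 FPKM (x axis) and by the number of S genes (left, of 19) or G2M genes (right, of 20) at 5 FPKM or more, coloured by the higher of Aldh1a1 and Aldh1a3. S counts climb with the listed genes, while no cell below 4000 listed genes has 5 G2M genes.

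Cells were next split by which of 2 retinaldehyde dehydrogenase genes, enzymes that make retinoic acid, was higher in them at 1 FPKM or more. Aldh1a1 was the higher in 55 cells, Aldh1a3 in 53, and 18 had neither. At least 5 S genes were present in 13 Aldh1a1 cells (23.6%, 13.2 to 37.02) and 10 Aldh1a3 cells (18.9%, 9.44 to 31.97). At least 5 G2M genes were present in 2 (3.64%, 0.44 to 12.5) and 3 (5.66%, 1.18 to 15.7), and the intervals overlap in each case. Without cells above 6000 listed genes the order turned, with 2 of 50 Aldh1a1 cells (4%) and 0 of 48 Aldh1a3 cells. Median listed genes were 5032 and 4435. Within the wild type the S shares were 4 of 14 (28.6%) and 6 of 17 (35.3%). Within Sox9 Y440X/+ they were 9 of 41 (21.95%, 10.6 to 37.6) and 4 of 36 (11.1%, 3.11 to 26.1), so the order of the classes differed between genotypes, within overlapping intervals. The 18 cells with neither gene had at least 5 S genes in 6 (33.3%) and at least 5 G2M genes in 2 (11.1%, 1.38 to 34.7).

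Shares of 3 single genes in these classes, chosen after their values were seen, follow. Tacc3 was present in 15 Aldh1a1 cells (27.3%) and 5 Aldh1a3 cells (9.43%). The same order held within the wild type (6 of 14 against 2 of 17 cells) and within Sox9 Y440X/+ (9 of 41 against 3 of 36). Pcna was present in 44 Aldh1a1 cells (80%) and 33 Aldh1a3 cells (62.3%). This was 11 of 14 against 12 of 17 in the wild type and 33 of 41 against 21 of 36 in Sox9 Y440X/+. For Tyms the order was the other way, 5 Aldh1a1 cells (9.09%) and 11 Aldh1a3 cells (20.75%). By genotype these were 1 of 14 against 3 of 17 and 4 of 41 against 8 of 36. Within each genotype the exact 95% intervals of the classes overlap for all 3 genes. The part of the gap in listed genes in these shares was not tested.

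The collagen cells held 3 of the 7 cells with at least 5 G2M genes. Among the 10 collagen cells, 3 had at least 5 G2M genes (30%, 6.67 to 65.2) and 5 had at least 5 S genes (50%, 18.7 to 81.3). Among the 113 Epcam cells these were 4 (3.54%, 0.97 to 8.82) and 23 (20.4%, 13.4 to 28.96). Col1a2 and Col3a1 are among the 7 mesenchymal markers below, and Epcam is among the 6 epithelial ones. These genes define the classes, so their part in the marker counts and sums is fixed in advance. Over the list of 7 mesenchymal markers, 4 to 6 were at 1 FPKM or more in each collagen cell and their sum was 426.7 to 1849.3 FPKM, with 0 to 7 in Epcam cells, none in 78 of 113 and sums of 0 to 1575.1. Of the 6 epithelial markers, 3 to 6 were found in each Epcam cell, with sums of 1389.0 to 12233.7 FPKM. In collagen cells 8 of 10 had none, 2 had Krt8 or both Krt8 and Krt18 with a sum of at most 113.5 FPKM, and Epcam, Cdh1, Cldn6 and Oc90 were at 0 in all 10. In all 7 cells with at least 5 G2M genes the 6 markers of mitochondria-rich cells were at 0, as they were below 1 FPKM in 101 of the other 119 cells. Median listed genes were close, 4551 in the collagen cells and 4706 in the Epcam cells. Among Epcam cells alone, at least 5 G2M genes were present in 2 of 32 wild-type cells (6.25%) and 2 of 81 Sox9 Y440X/+ cells (2.47%).

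The level of each gene was set against the genotype as the difference of mean log2(FPKM + 1), Sox9 Y440X/+ minus wild type, less the median difference of -0.20 over the 9906 genes compared. A gene was compared where 10% of all cells or more had it at 1 FPKM, which kept 13 of the 39 genes, 11 S and 2 G2M. Beyond 1 log2 unit, 0 of the 13 were higher and 1 was lower, against 7.74% of all compared genes in either direction, 1.58% higher and 6.16% lower. A count of 1 in 13 is near that background. The 11 S genes had a median relative difference of 0.05, with Mcm2 at -1.58 and the other 10 between -0.47 (Rrm1) and 0.54 (Tyms). The 26 genes not compared are given by their shares of cells only.

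Mcm2 (ENSMUSG00000002870.8, chromosome 6, 88883474 to 88898780) was the gene below -1. Its level ran from 0 through a median of 4.11 to 73.96 FPKM in wild-type cells and from 0 through 0 to 348.3 FPKM in Sox9 Y440X/+ cells. The highest single value thus lay in the group with the lower share. Its mean log2(FPKM + 1) was 2.76 ± 2.42 (SD, n = 33 cells) in the wild type and 0.99 ± 2.05 (SD, n = 93 cells) in Sox9 Y440X/+. Mcm2 was present in 16 of 33 wild-type cells (48.5%, 30.8 to 66.5) and 18 of 93 Sox9 Y440X/+ cells (19.4%, 11.9 to 28.9), intervals that do not overlap. The intervals of 1 of the 13 compared genes, Mcm2, did not overlap, against 2.48% of the 9906 genes (2.35% with the wild type higher), and they leave out differences among animals.

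The gap in Mcm2 was seen in 3 of the 4 bins of listed genes, with 5 of 11 wild-type against 8 of 40 Sox9 Y440X/+ cells from 4000 up to 5000 and 7 of 14 against 5 of 20 from 5000 up to 6000. At 6000 and over it was 4 of 6 against 1 of 4, but below 4000 it was 0 of 2 against 4 of 29. It was 7 of 14 against 7 of 41 among Aldh1a1 cells, 9 of 17 against 4 of 36 among Aldh1a3 cells and 15 of 32 against 10 of 81 among Epcam cells. The relative difference of Mcm2 ranged from -2.80 to -0.62 over the settings tried, the latter with a pseudocount of 10. No other MCM gene came near it: Mcm6 was at 0.38, Mcm7 at 0.19, Mcm3 at 0.05, Mcm4 at -0.08 and Mcm5 at -0.09.

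Tyms stood at the other end with a relative difference of 0.54, present in 4 of 33 wild-type (12.1%, 3.40 to 28.2) and 17 of 93 Sox9 Y440X/+ cells (18.3%, 11.02 to 27.6). Mcm6 (0.38) and Uhrf1 (0.36) followed, and Rrm1 was at -0.47. Of the G2M genes, Tacc3 was at -0.43, present in 24.2% of wild-type (11.1 to 42.3) and 15.1% of Sox9 Y440X/+ cells (8.48 to 23.97). Cdk1 was at -0.77, present in 7 of 33 (21.2%, 8.98 to 38.9) and 9 of 93 cells (9.68%, 4.52 to 17.6), overlapping intervals in each case. Over the settings tried, the relative difference of Tacc3 ran from -0.65 to 0.16, so its sign was not stable. That of Cdk1 ran from -1.05 to -0.51 and that of Tyms from 0.26 to 0.87. The sign also changed for Mcm3, Mcm4 and Slbp. Over all 39 genes, the share of cells in which the gene was present was higher in the wild type for 33, higher in Sox9 Y440X/+ for 5 (Mcm6, Tyms, Rrm2, Uhrf1 and Tpx2) and equal at 0 for E2f8. Of the 17330 genes at 5 FPKM or more in any cell, 56.4% had the higher share in the wild type and 43.2% in Sox9 Y440X/+, and among the 9906 compared genes 66.6% had it in the wild type, as did 10 of the 13. Of the 33, 19 were G2M genes, and wild-type cells 7 and 11 had 19 and 20 G2M genes present. The same few cells thus enter many of these shares, and the genes do not count separately. The wild-type cells also had more listed genes, and the part of either in the 33 was not tested.

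**Figure D4:**
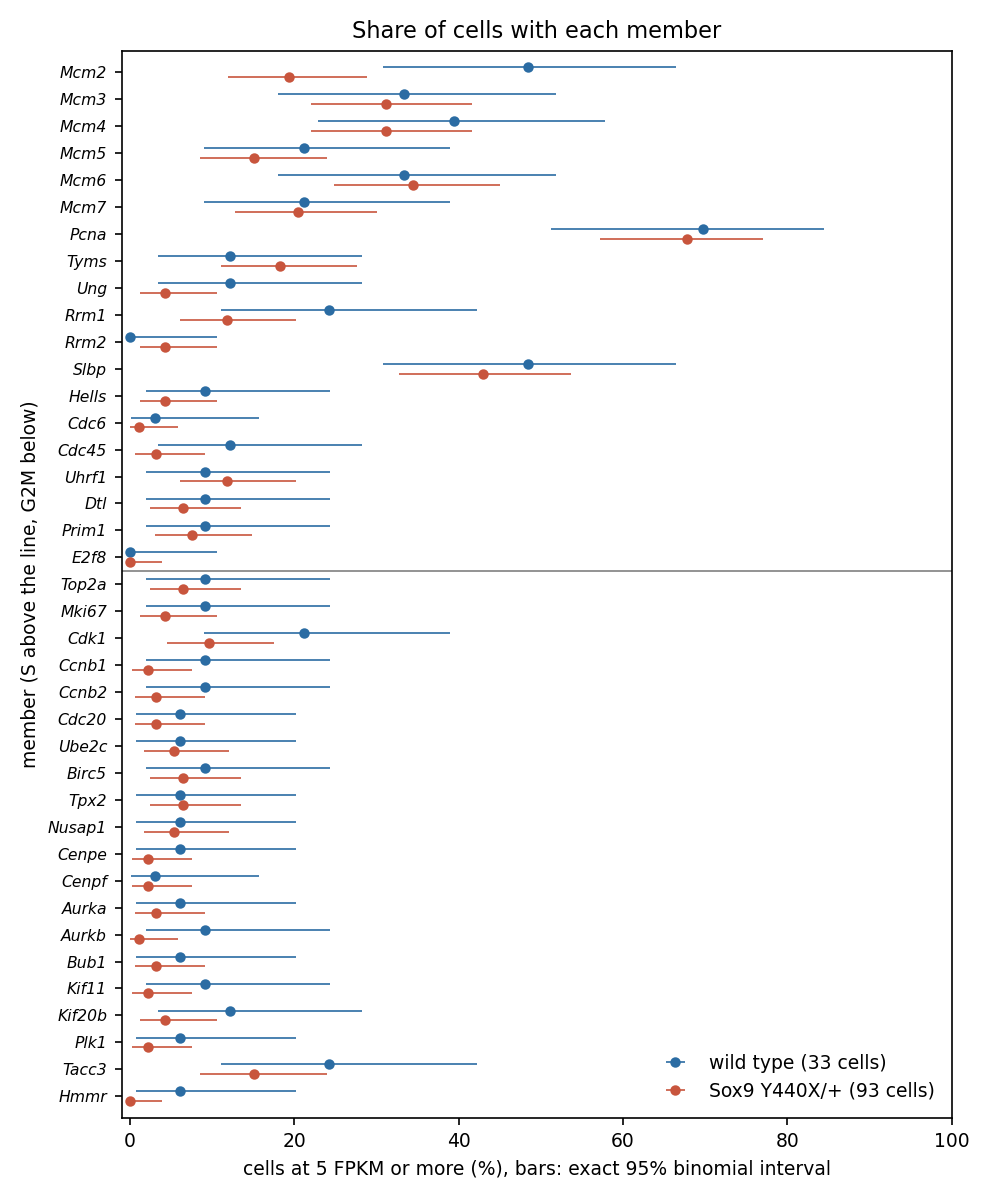
For each of the 39 genes the share of wild-type (33) and Sox9 Y440X/+ (93) cells at 5 FPKM or more is shown in percent, with exact 95% binomial intervals for counting error only. Mcm2 is at 48.5% against 19.4%, Pcna has the highest share in both groups, and most G2M genes lie below 10% in both groups.

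Other genes of the cell cycle were read in the 7 cells with at least 5 G2M genes against the remaining 119, again as relative differences (median of all compared genes 0.20). Here 26.8% of the 9906 compared genes were beyond 1 log2 unit, 16.2% higher and 10.6% lower, a wide background for a group of 7 cells. Median listed genes were 5404 in the 7 cells. They were 4848.5 in the others with at least 5 S genes and 4489 in those with fewer. Collagen cells were 3 of the 7 and 7 of the 119, and the part of listed genes or cell class in these differences was not tested. The 7 cells were chosen by the G2M count, so the 2 compared G2M genes, Cdk1 (6.24) and Tacc3 (5.81), were high by that choice. No S gene entered the count, and 8 of the 11 compared S genes were above 1, given as a description. The 11 compared genes of a list of other mitotic genes were all higher, with a median of 3.85, from 1.40 for the condensin subunit Smc2 to 6.47 for Cks2, a subunit that binds Cdk1. Cks2 was present in all 7 cells, from 156.4 to 1218.1 FPKM, and in 33 of the 109 other Epcam cells. Of 14 replication fork genes, 10 were higher, led by the clamp loader subunit Rfc4 at 2.93. Of 8 licensing and firing genes compared, 3 were higher, led by the licensing inhibitor Gmnn (geminin) at 3.03, and 2 lower, with the origin recognition subunit Orc3 at -2.15.

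Of the cycle's regulators, Ccna2, Foxm1 and Mybl2 were too scarce to compare. Ccna2 (cyclin A2) was present in 6 cells, 5 of them among the 7. Foxm1 and Mybl2, activators of G2M genes, were each present in 4 cells, 2 among the 7. Of 7 G1 and S cyclin and kinase genes compared, Ccnd2 (1.12) and Cdk4 (1.05) were above 1, Ccnd1 was at 0.19 and Ccnd3 was lowest at -0.56. Within the 7, Ccnd2 differed by cell class: it was at 171.4 to 514.4 FPKM in the 3 collagen cells and at most 1.53 in the 4 Epcam cells. None of the 6 E2F and pocket protein genes compared was above 1, with Tfdp1 highest at 0.82, and 2 were below -1, E2f5 (-1.17) and Rbl2 (-1.12).

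The cyclin-dependent kinase inhibitor Cdkn1a (p21), which halts the cycle, was the lowest of these genes in the 7 cells at -4.29, while Cdkn1b (p27) was at 1.31 and Cdkn1c (p57) at 2.26. This value mixes cell classes, since Cdkn1a was at 0 in all 3 collagen cells of the 7 and present in only 1 of the 7 other collagen cells (46.8 FPKM). Among Epcam cells, Cdkn1a was at 32.96, 76.6, 89.1 and 115.9 FPKM in the 4 cells with at least 5 G2M genes. In the other 109 Epcam cells its median was 374.0 FPKM, with quartiles of 205.7 and 607.9 and a range of 0 to 1809.8. All 4 values lay below the lower quartile, and 20 of the 109 cells (18.3%) were below the highest of the 4. Epcam cells with at least 5 S and at most 2 G2M genes had a median of 355.6 FPKM (n = 20), close to 390.1 FPKM in Epcam cells with fewer S genes (n = 89). Cdkn1c was present in all 4 Epcam cells with at least 5 G2M genes and in 49 of the other 109. Among collagen cells Cdkn1c was present in 2 of the 3 and 4 of the 7 others. Cdkn1b was present in 2 of the 4 and 14 of the 109 Epcam cells. Among collagen cells Cdkn1b was present in 1 of the 3 and 1 of the 7 others. The 4 Epcam cells are 2 of each genotype, and the split was made after the values were seen.

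**Figure D5:**
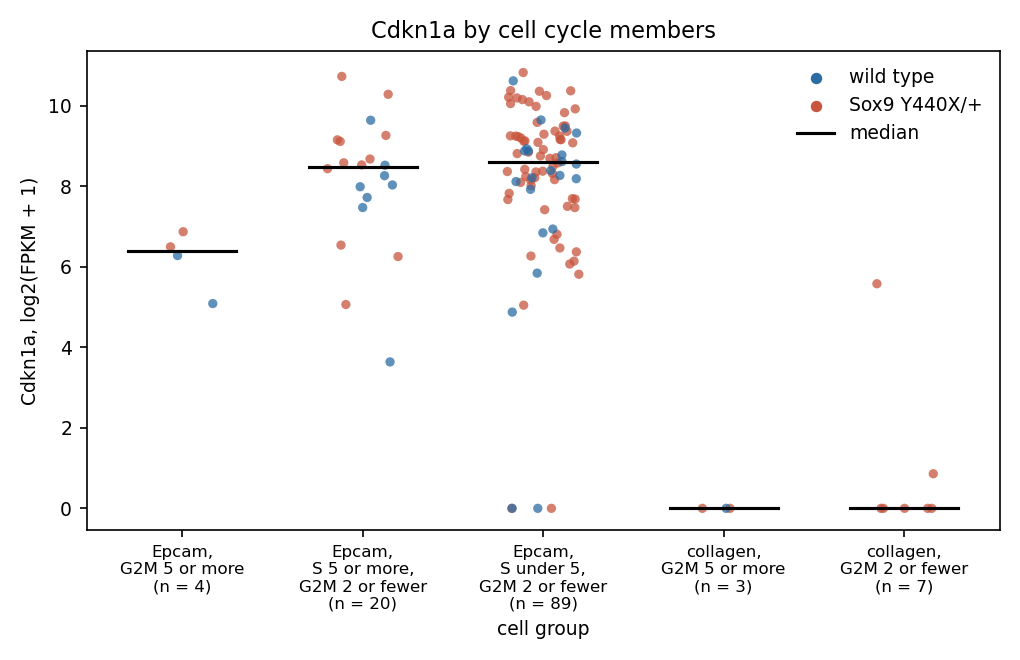
Cdkn1a as log2(FPKM + 1) in each cell (blue wild type, red Sox9 Y440X/+), grouped by Epcam or collagen class and by the S and G2M counts, with black bars at the medians. The 4 Epcam cells with at least 5 G2M genes lie at 32.96 to 115.9 FPKM, and collagen cells are at or near 0 in both groups except 1 at 46.8 FPKM.

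Between genotypes, 3 of the 52 compared genes of the same lists were beyond 1 log2 unit (5.77%), near the 7.74% of all compared genes. Ccnd2 was higher in Sox9 Y440X/+ at 1.89, present in 6 of 33 wild-type cells (18.2%) and 38 of 93 Sox9 Y440X/+ cells (40.9%). Cks2 (-1.51) and the securin gene Pttg1 (-1.04) were lower. None of the compared genes of the inhibitor, E2F, licensing, replication fork or MuvB lists passed 1 in either direction. Cdkn1a was at 0.45, Cdkn1b at 0.06, Cdkn1c at 0.52 and Ccnd1 at 0.88. Ccnd2 was present in the 3 collagen cells with at least 5 G2M genes and in 6 of the 7 others. Collagen cells were 9 of 93 Sox9 Y440X/+ and 1 of 33 wild-type cells, and their part in this difference was not tested.

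The genes most like Top2a in their levels over the 126 cells, by Spearman's rho among 10836 genes, were 2810417H13Rik (0.56), the condensin genes Ncaph (0.51) and Ncapd2 (0.51), Suv39h1 (0.50) and C330027C09Rik (0.47). Each was present in 10 to 17 cells. Genes that reached 1 FPKM in fewer than 10 cells were left out of this ranking. Of the other G2M genes only Cdk1 (0.35) and Tacc3 (0.39) remained, and the likeness of the rest to Top2a was not tested. Top2a itself reached 1 FPKM in 10 cells, so its values rest on few cells. For Mcm2 the highest values were weaker, led by Col9a3 (0.41), and the other MCM genes ranged from 0.05 (Mcm3) to 0.29 (Mcm4). These values share the listed genes of each cell and are descriptions.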

How the data were processed

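The authors deposited FPKM values for genes by cells. Tools listed, without role or order, in the submitters' processing notes are Cufflinks, HTSeq, HISAT2 and SAMtools 0.1.18, with build mm10. Strand, annotation release and read filters: not given in the sources used here. Coordinates are the table's, counted from 1. Rows of 1 gene identifier were summed. No cell was left out, no doublet caller was run, and low values showed no steps of whole reads, so depth is unknown.

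Members and lists were chosen with earlier results of these data known. Presence was set at 5 FPKM and many members at 5. Levels are mean log2(FPKM + 1), pseudocount 1. Calls are beyond 1 log2 unit, among genes at 1 FPKM in at least 10% of cells. The limit for 0 cells is 3 of the total. Genes given in full were those present in the most and fewest cells, with the highest and lowest differences, or leading a cell; other lists give their extremes and fixed regulators. Cdt1 and Tubb3 were not analysed here. The difference calculation was tested on simulated data. Python 3.11.15, pandas 2.3.3, numpy 2.4.6 and scipy 1.17.1 were used.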

Additional observations from a re-analysis of the deposited data

How the results depend on the processing

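No paired analysis was possible because replicate numbers only name cells in accession order and the results come from no test. The share of cells with at least 5 G2M genes was 0% among wild-type cells with 3000 to 5000 listed genes (0 of 12), 0% among Aldh1a1 cells of that range (0 of 26), and 0% among Aldh1a3 cells both in that range (0 of 35) and without cells above 6000 listed genes (0 of 48). Without cells above 6000 listed genes it was 3.70% in the wild type and 3.37% in Sox9 Y440X/+ cells. Asking for at least 3 S genes gave 75.8% of wild-type and 61.3% of Sox9 Y440X/+ cells, and at least 8 gave 12.1% and 5.38%. With a pseudocount of 0.1, 2 genes were lower in Sox9 Y440X/+ (Cdk1 and Mcm2), and with a pseudocount of 10, 0 were; over all genes compared the former gave 8.78% higher and 13.5% lower. These alternatives use fewer cells, another threshold on the count of genes or another pseudocount. The other 106 values kept within the 95% interval of a share, the SD over cells of a median S count, or 1.5 times of the count. That SD is the spread among cells, a wide limit for a median. Leaving out overlapping genes, the cells with 5 or 6 G2M genes, the collagen cells, and, for relative differences, the cells with a Y-linked gene was chosen after seeing the data. Cells per genotype, unknown read depth and unnamed animals limit every value.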
